A study of Homo sapiens with 6 samples.

Results

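Ion channel genes were examined in LS 174T, a human colorectal adenocarcinoma cell line that makes mucins and is used as a model of goblet cells, the mucus-secreting cells of the intestine. Members were the gene symbols of the count tables that begin with the prefixes of the potassium (KCN), sodium (SCN and SCNN), calcium (CACN), transient receptor potential (TRPC, TRPM and TRPV), CLC chloride (CLCN), anoctamin (ANO) and bestrophin (BEST) families, together with CFTR and the store-operated calcium entry genes (ORAI and STIM), if they held 60 or more reads over all libraries. Of 218 matching symbols, 69 were members, 80 had fewer reads and 69 had no read in any library, against 24462 symbols in the tables as a whole. Just inside the limit were KCNJ2 with 60 and KCNA6 with 61 reads, and just outside it were CACNA2D4 and KCNJ10 with 59 reads each. The prefixes also took in 5 non-coding RNA genes and TRPC4AP, whose product binds a channel, and these 6 are described apart from the 63 channel genes.

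The study compared 3 libraries of cells left untreated (control) with 3 libraries of cells kept for 4 h with propionate at 4 mM. Propionate is one of the short-chain fatty acids that gut bacteria make. Both groups were the same unmodified line at passages 21 to 23, grown in medium with fetal bovine serum. Library totals ran from 11603288 to 12746170 reads. Levels are given in CPM, the reads of a gene per 1000000 reads of its library, with the total taken over tested genes and scaled between libraries. A count of 0 allows up to 3 reads, which is 0.235 to 0.259 CPM by library total. Of 14 listed markers of colon epithelium and goblet cells, 13 were above 1 CPM in all libraries. Some of them moved by small amounts, in both directions. CDX1 and CDX2 were called as lower (log2 fold change -0.24 and -0.39, edgeR adjusted p = 0.0245 and 0.00374). KRT18, LGALS4 and MUC2 were called as higher (0.32, 0.22 and 0.25, edgeR adjusted p = 0.0240, 0.0310 and 0.0396), and the others were not called. Of 10 markers of neurons and muscle, the cells in which many of these channels are best known, none was above 1 CPM in all libraries and MYH6 and MYH7 had no read. The summed level of the neuron and muscle markers was 3.08 to 5.50 CPM in control and 1.94 to 5.47 CPM with propionate. Single markers among them moved: SYT1 was 2.65-fold lower and MAP2 3.75-fold higher (edgeR adjusted p = 0.00777 and 0.0154), as was the fibroblast marker COL1A1, by 4.13-fold (0.000219), all at few reads. The part of these marker changes in the results was not tested. Of 5 fibroblast markers 1, and of 5 markers of leukocytes and endothelium 1, was above 1 CPM in all libraries, with summed levels of 3.58 to 7.00 and 10.8 to 16.1 CPM in control and 6.18 to 7.99 and 9.73 to 11.5 CPM with propionate. The labels do not say whether libraries of one group came from separate cultures, so the spread behind each p-value is that of these libraries and may be technical. In bulk RNA, fewer cells of a kind and less RNA per cell cannot be told apart.

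Ion channels are membrane proteins that let selected ions flow down their gradients, and their pore-forming subunits often work with auxiliary subunits that set their gating, assembly and place in the cell. In intestinal crypts, chloride leaves the cell through apical channels such as CFTR, potassium channels of the basolateral membrane keep up the voltage that drives it, and water follows the salt and hydrates mucus. Calcium that enters through plasma membrane channels, or that is released from stores and replaced through STIM and ORAI proteins, triggers the release of mucin granules in goblet cells.

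A subset of channel genes changed with propionate, while several that are best known for intestinal salt transport did not pass the threshold. The calcium-activated cation channel gene TRPM5 rose 8.03-fold, and the potassium channel genes KCNK5 and KCNS3 rose 3.57-fold and 3.66-fold. TRPM5 and KCNS3 had only 13 and 22 reads in the controls together. They passed the filter on low counts through the propionate libraries alone. TRPM5 also shares exon bases with AC124057.1 on the opposite strand. The chloride channel gene CLCN2 rose 2.25-fold, but its reads cannot be told apart from those of FAM131A, which overlaps it and also rose. The bestrophin gene BEST3 was 2.99-fold lower, and TRPM2, KCNV1, KCNRG, KCNJ11 and STIM2 fell by smaller amounts. Reads of KCNRG cannot be told apart with certainty from those of TRIM13, which overlaps it and also fell. CFTR, KCNQ1, KCNE3, KCNN4, ANO1 and SCNN1A were among those not called. With each library's trend over transcript GC content removed, KCNQ1 and SCNN1A were called as lower. KCNN4 was called as lower only when the replicate number was also a block.

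Among all 13605 tested genes 34.2% were called, 17.2% as higher and 17.0% as lower (adjusted p under 0.05 by the Benjamini-Hochberg method over all tested genes, from the quasi-likelihood test of edgeR). Of the 69 members 68 had enough reads to be tested, and 16 were higher, 7 were lower and 45 were not called, a share of 33.8% that was near the background. With the replicate number as a block, 21 members were higher and 7 lower, where 2980 of all tested genes were higher and 3074 lower. The higher members made 23.5% and the lower members 10.3% of those tested. SCNN1D was the member left out by the filter on low counts. The filter was passed through the libraries of 1 group alone by 9 members, among them the higher members TRPM5, KCNS3 and CACNG8, so the counts over tested members describe them and support nothing further. Propionate libraries all lay above all controls in 22 tested members and all below in 8, where the libraries of 45.2% of all tested genes did not overlap, 22.4% above and 22.7% below. The median log2 fold change over tested members was 0.07, beside -0.01 over all tested genes. At least 2-fold changes were called in 9 members upward and 1 downward, where 5.01% of all tested genes were 2-fold higher and 1.98% 2-fold lower.

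**Figure D1:**
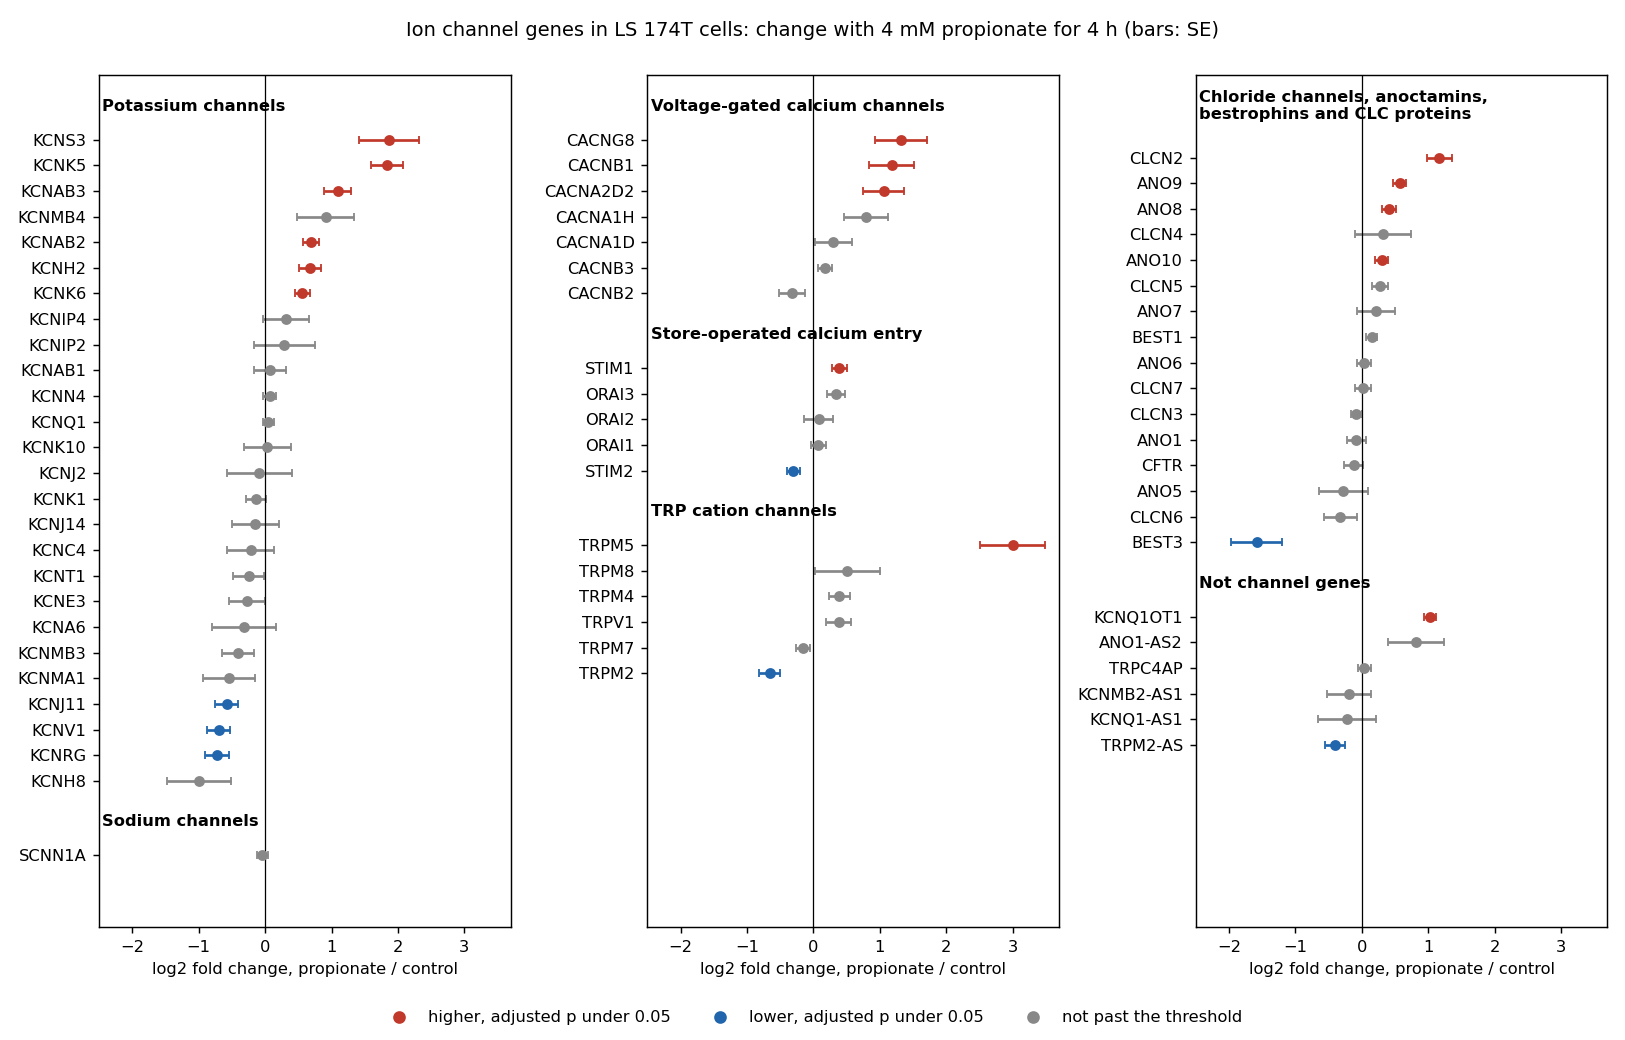
Fold change of the tested members by ion group, with 1 potassium member not shown. The horizontal axis gives the log2 fold change of propionate over control, points are the fitted values and bars their standard errors, red and blue mark genes past the threshold (edgeR adjusted p under 0.05) and grey marks those that are not. TRPM5 lies farthest to the right at 3.0 and BEST3 farthest to the left at -1.58.

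The changed genes differed in base composition. Transcripts of the 15 higher channel genes had a median GC content of 58.8%, those of the 6 lower ones 44.9% and those of the 41 that were not called 49.9%. Over all tested genes the higher ones had a median of 55.7% and the lower ones 45.8%. With each library's trend over transcript GC content removed, 20 of the 23 called members were still called, and the members then counted 14 higher and 10 lower. KCNH2, ANO8 and STIM1 were the ones that were lost, and their values are given with their results. The part of base composition in the other changes was not tested.

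Potassium channel genes formed the largest group, with 27 members, all of them tested, of which 6 were higher, 3 were lower and 18 were not called. The share called, 33.3%, was near the 34.2% of all tested genes. Their median log2 fold change was -0.01, and the summed level of the group went from 394.6 ± 24.0 to 425.8 ± 4.82 CPM (mean ± SD, n = 3). Levels were not compared between genes, because the labels do not settle whether reads scale with transcript length.

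Two-pore channels carry the background potassium current that sets the resting voltage. KCNK5, the pH-sensitive channel TASK-2 of epithelial cells, stood at 2.36, 2.23 and 2.50 CPM in the control libraries and at 10.6, 7.07 and 7.70 CPM with propionate. The control libraries were nearly level and every propionate library lay at least 4 CPM above them. The log2 fold change was 1.83 (edgeR SE 0.243, adjusted p = 1.09e-05). KCNK6 (TWIK-2) was at 33.8, 31.0 and 30.7 CPM in control and 41.2, 47.0 and 52.2 CPM with propionate, again without overlap, and rose 1.47-fold (edgeR adjusted p = 0.000628). The other members of this family that could be tested, KCNK1 and KCNK10, had log2 fold changes of -0.14 and 0.03 and overlapping libraries.

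The starts of these genes were looked up because transcripts of the higher genes had a high GC content. Shown are the 250 bases before the RefSeq start (GRCh38.p14) of 4 called members that have 1 start in that table, chosen after their values were seen. CACNB1, which was higher, and KCNRG, which was lower, also have 1 start there and are not shown. Capitals mark matches to the GC box GGGCGG, or CCGCCC on the other strand, a motif that binds SP and KLF family factors.
KCNK5, chr6:39229476-39229725, minus strand: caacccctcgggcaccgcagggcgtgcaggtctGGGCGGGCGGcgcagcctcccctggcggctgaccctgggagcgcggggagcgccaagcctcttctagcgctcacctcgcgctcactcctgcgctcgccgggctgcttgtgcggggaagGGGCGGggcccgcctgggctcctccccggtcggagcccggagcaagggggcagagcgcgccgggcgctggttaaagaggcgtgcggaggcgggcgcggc
KCNK6, chr19:38319595-38319844, plus strand: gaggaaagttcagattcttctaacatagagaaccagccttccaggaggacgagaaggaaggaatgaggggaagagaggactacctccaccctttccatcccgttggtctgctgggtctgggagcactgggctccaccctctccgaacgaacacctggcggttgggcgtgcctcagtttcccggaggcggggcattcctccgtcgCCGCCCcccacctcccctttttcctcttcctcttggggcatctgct
CLCN2, chr3:184361606-184361855, minus strand: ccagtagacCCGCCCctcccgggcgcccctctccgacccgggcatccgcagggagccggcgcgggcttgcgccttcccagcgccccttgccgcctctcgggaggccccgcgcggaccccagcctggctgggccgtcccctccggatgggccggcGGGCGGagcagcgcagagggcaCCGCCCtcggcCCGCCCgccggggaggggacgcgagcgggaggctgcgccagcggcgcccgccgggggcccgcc
STIM2, chr4:26860591-26860840, plus strand: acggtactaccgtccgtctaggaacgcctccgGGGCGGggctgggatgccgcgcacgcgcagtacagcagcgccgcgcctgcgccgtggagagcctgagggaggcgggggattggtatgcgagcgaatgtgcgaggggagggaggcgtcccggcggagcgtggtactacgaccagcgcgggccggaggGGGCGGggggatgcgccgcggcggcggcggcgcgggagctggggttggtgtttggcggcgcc
The GC box was matched 3 times before KCNK5, 1 time before KCNK6, 4 times before CLCN2 and 2 times before STIM2, the last of which fell with propionate. The GC content of these stretches was 77.2%, 59.6%, 83.2% and 75.2%, beside a median of 64.4% over the starts of channel genes and 58.0% over the 35116 starts in the table. GC boxes were found before 42.6% of all starts and 48.3% of the 87 starts of the 47 channel genes in the table, of which 16 of 23 starts of higher genes and 3 of 5 starts of lower genes held one. The core of the hypoxia response element, ACGTG or CACGT on the other strand, was looked for because the series title names a hypoxia-inducible factor. It was found in 18.5% of all starts, in 26.4% of channel gene starts and in 3 of the 23 starts of higher genes and 1 of the 5 of lower genes, and in none of the 4 stretches shown. The TATA box TATAAA, or TTTATA on the other strand, was in 10.7% of all starts and in none of the 4. A match says only that these letters occur in the window.

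Of the 11 auxiliary, regulatory and modifying potassium members, 3 were higher, 2 were lower and 6 were not called, where 34.2% of all tested genes were called. KCNAB2 and KCNAB3 encode cytoplasmic beta subunits of the Shaker-type channels. KCNAB3 was at 5.16, 4.19 and 4.67 CPM in control and 10.6, 8.20 and 11.2 CPM with propionate, and KCNAB2 was at 22.7, 21.8 and 19.6 CPM in control and 40.1, 31.0 and 32.1 CPM with propionate. In both genes all propionate libraries lay above all controls, and the log2 fold changes were 1.09 (edgeR SE 0.202, adjusted p = 0.000340) and 0.69 (edgeR SE 0.125, adjusted p = 0.000294). The log2 fold change of KCNAB2 was 0.42 on removal of the GC trend and was still called (edgeR adjusted p = 0.0112). The third beta subunit gene, KCNAB1, had mean levels of 6.66 ± 0.443 and 6.98 ± 2.70 CPM (log2 fold change 0.07, SE 0.241). Of the pore genes that such beta subunits join, KCNA6 was the only member, with 61 reads in all, and KCNA1, KCNA2, KCNA4 and KCNA5 had no read.

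KCNS3 and KCNV1 encode subunits that form no channel alone and change the currents of other voltage-gated potassium channels. They moved in opposite directions. KCNS3 had 22 reads in the controls together and 86 in the propionate libraries, which is 3.74 times as many per library total (exact binomial 95% interval 2.32 to 6.27, which covers counting error only). Its libraries were at 0.962, 0.428 and 0.50 CPM in control and 1.47, 2.81 and 2.71 CPM with propionate and did not overlap (edgeR adjusted p = 0.00320). KCNV1 fell from 11.3, 11.7 and 12.1 to 6.44, 8.04 and 7.19 CPM, with a tight spread in control and no overlap (edgeR log2 fold change -0.70 with an SE of 0.170, adjusted p = 0.00356).

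KCNH2 encodes hERG, the rapidly activating delayed rectifier known from heart muscle. It was at 10.1, 10.6 and 9.50 CPM in control and 19.1, 13.3 and 15.7 CPM with propionate, without overlap, a log2 fold change of 0.68 (edgeR SE 0.163, adjusted p = 0.00321). With the GC trend removed the log2 fold change was 0.30 (edgeR adjusted p = 0.159, range 0.000484 to 0.159 over its alternatives). The related KCNH8 had 51 reads in control and 27 with propionate, all propionate libraries were below all controls, and it was not called (edgeR log2 fold change -1.0 with an SE of 0.483, adjusted p = 0.119).

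KCNJ11 encodes Kir6.2, the pore of ATP-sensitive potassium channels. Its control libraries were at 17.8, 21.2 and 14.7 CPM and its propionate libraries at 9.77, 15.3 and 10.9 CPM. Propionate library 2 was above control library 3, so the groups overlapped, and the log2 fold change was -0.58 (edgeR SE 0.178, adjusted p = 0.0174). The call was lost without control library 2 (edgeR adjusted p = 0.105), propionate library 1 (0.0964) or propionate library 3 (0.0568), in a range of 1.95e-05 to 0.105 over its alternatives. KCNRG, whose product hinders the assembly of voltage-gated potassium channels, fell from 16.5, 17.5 and 12.9 to 11.9, 8.92 and 7.53 CPM (log2 fold change -0.72, edgeR adjusted p = 0.00446). Its exons share 1086 bases with those of TRIM13 on the same strand in GENCODE 29, and TRIM13 fell as well (log2 fold change -0.66, edgeR adjusted p = 4.60e-05), so that reads of the pair cannot be told apart with certainty.

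**Figure D2:**
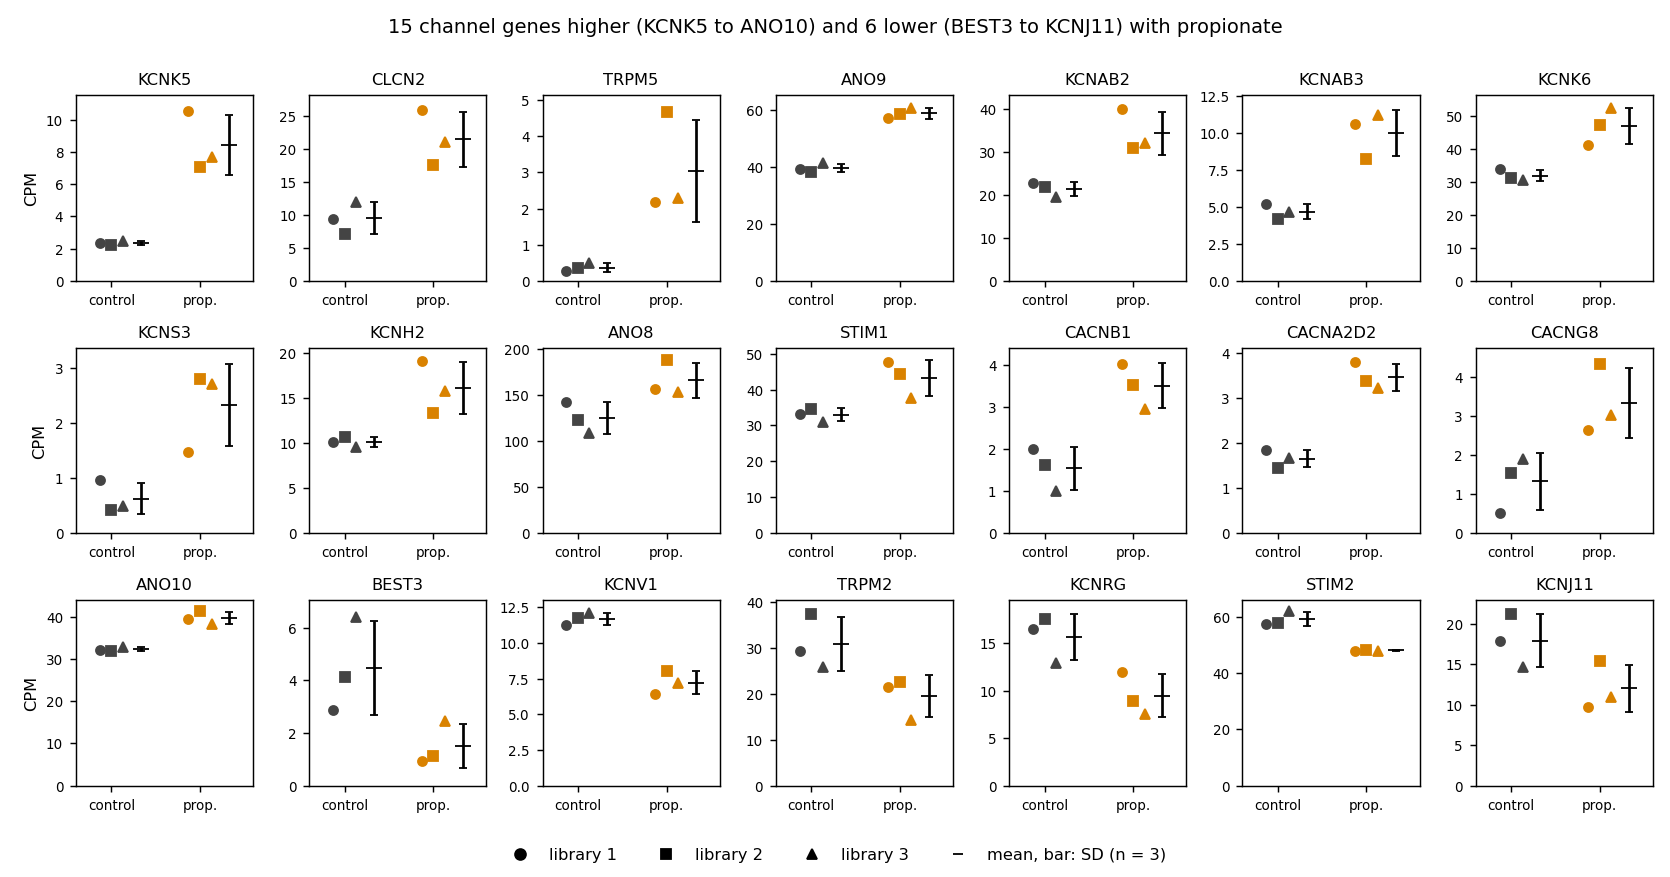
Level of each called channel gene in every library. The vertical axes give CPM from 0, grey and orange symbols are control and propionate libraries, the shape gives the library number, and the dash with a bar is the mean with the SD (n = 3). In all panels but that of KCNJ11 the groups do not overlap.

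Among potassium channel genes linked to chloride secretion, KCNQ1, KCNE3, KCNN4 and KCNMA1 were not called. KCNQ1 and its partner KCNE3 form the cyclic AMP-activated channel of colonic crypts. KCNQ1, which held most reads of the potassium group, was at 153, 159 and 143 CPM in control and 156, 156 and 158 CPM with propionate. These libraries overlapped and the log2 fold change was 0.05 (edgeR SE 0.0795, adjusted p = 0.687). With the GC trend removed KCNQ1 was called as lower (log2 fold change -0.27, edgeR adjusted p = 0.0112, range 0.000433 to 0.979 over its alternatives). KCNE3 was at 6.73, 4.96 and 4.50 CPM in control and 6.36, 3.46 and 3.55 CPM with propionate (edgeR log2 fold change -0.27 with an SE of 0.270, adjusted p = 0.476). Library 1 was the highest of its group in both conditions.

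KCNN4 encodes the calcium-activated potassium channel of the basolateral membrane, and its libraries were at 50.1, 56.3 and 49.1 CPM in control and 53.7, 57.1 and 52.7 CPM with propionate (edgeR log2 fold change 0.07 with an SE of 0.0963, adjusted p = 0.601). After removal of the GC trend its log2 fold change was -0.20 (edgeR adjusted p = 0.108), and with the replicate block as well it was called as lower (0.0387, range 0.0387 to 0.855). The large-conductance channel gene KCNMA1 was at 2.36, 2.40 and 1.42 CPM in control and 1.09, 1.12 and 2.03 CPM with propionate (edgeR log2 fold change -0.54 with an SE of 0.393, adjusted p = 0.310). Its subunit gene KCNMB4 had all propionate libraries above all controls, at 1.08 ± 0.157 and 2.05 ± 1.08 CPM, and was not called (edgeR adjusted p = 0.110). Libraries of KCNA6, KCNC4, KCNIP2, KCNIP4, KCNJ2, KCNJ14, KCNMB3 and KCNT1, which were not called, overlapped between groups, with log2 fold changes between -0.41 and 0.31. The last 500 exonic bases of KCNMB3 lie within exons of PIK3CA on the opposite strand, which was not called (log2 fold change -0.71, edgeR adjusted p = 0.135).

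Sodium channels were represented by the epithelial sodium channel alone, the amiloride-sensitive route of salt uptake. SCNN1A, its alpha subunit gene, was at 126, 127 and 118 CPM in control and 129.8, 119 and 113 CPM with propionate, and the groups overlapped (edgeR log2 fold change -0.04 with an SE of 0.0845, adjusted p = 0.777). It was called as lower when the GC trend was removed (log2 fold change -0.23, edgeR adjusted p = 0.0392, range 0.00276 to 0.957 over its alternatives). Exons of SCNN1A share 422 bases with LTBR on the opposite strand, which fell (log2 fold change -0.49, edgeR adjusted p = 0.00447). SCNN1B and SCNN1G, the beta and gamma subunit genes, had no read in any library. SCNN1D, the delta subunit gene, had 13 reads in the controls together and 58 in the propionate libraries, 4.26 times as many (exact binomial 95% interval 2.31 to 8.48). All its propionate libraries lay above all controls, but it was too low to be tested with all genes. SCN1A, SCN2A and SCN8A, which encode voltage-gated sodium channels of neurons, had no read.

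Voltage-gated calcium channel genes had 7 members, of which 3 were higher, none was lower and 4 were not called by edgeR. The share called was 42.9%, where 34.2% of all tested genes were called, 17.2% as higher and 17.0% as lower. With 7 members these counts describe the group and support nothing further. Lower members also numbered 0 at an unadjusted p under 0.05, and 0 by DESeq2 and by limma-voom. The median log2 fold change was 0.79 and the summed level went from 58.8 ± 2.19 to 69.7 ± 1.84 CPM (n = 3). All 3 called genes encode auxiliary proteins and had few reads. Exons of CACNA2D2 share 606 bases with CYB561D2 on the opposite strand, which fell (log2 fold change -0.38, edgeR adjusted p = 0.0199). CACNA2D2, an alpha2delta subunit gene, was at 1.84, 1.46 and 1.67 CPM in control and 3.80, 3.38 and 3.22 CPM with propionate. CACNB1, a beta subunit gene known from skeletal muscle, was at 2.01, 1.63 and 1.0 CPM in control and 4.03, 3.54 and 2.96 CPM with propionate. CACNG8, whose product also accompanies AMPA-type glutamate receptors, was at 0.525, 1.54 and 1.92 CPM in control and 2.64, 4.34 and 3.05 CPM with propionate.

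None of these 3 overlapped between groups, and control library 1 was lowest for CACNG8 but highest for CACNA2D2 and CACNB1. Their log2 fold changes were 1.06 (SE 0.310), 1.18 (SE 0.336) and 1.32 (SE 0.396), with edgeR adjusted p of 0.0118, 0.0101 and 0.0144. Single libraries decided 2 of these calls. CACNB1 was lost without control library 3 (edgeR adjusted p = 0.0505, range 0.00397 to 0.0505). CACNG8 was lost without control library 1 or propionate library 2 (edgeR adjusted p = 0.0627 and 0.0801, range 0.00189 to 0.0801).

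The pore genes of this group were not called. CACNA1H, a low-voltage-activated channel, was at 1.92, 2.82 and 1.67 CPM in control and 2.48, 5.06 and 3.55 CPM with propionate with overlap (edgeR log2 fold change 0.79 with an SE of 0.333, adjusted p = 0.0747). CACNA1D, an L-type channel, had a log2 fold change of 0.30 (SE 0.282). The last 500 exonic bases of CACNA1D lie within exons of CHDH on the opposite strand, and CHDH fell (log2 fold change -0.83, edgeR adjusted p = 7.17e-06). CACNB3, with most reads of the group, was at 41.4, 38.2 and 34.7 CPM in control and 45.1, 40.6 and 43.4 CPM with propionate (edgeR log2 fold change 0.18 with an SE of 0.104, adjusted p = 0.201), or -0.07 with the GC trend removed (edgeR adjusted p = 0.625, range 0.0977 to 0.625). CACNB2 had a log2 fold change of -0.32 (SE 0.191).

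Store-operated calcium entry couples emptied stores to the plasma membrane: STIM proteins sense calcium in the endoplasmic reticulum and open ORAI channels. The sensors moved in opposite directions. STIM1 was at 33.3, 34.6 and 31.0 CPM in control and 47.6, 44.4 and 37.7 CPM with propionate, without overlap (edgeR log2 fold change 0.39 with an SE of 0.110, adjusted p = 0.00941). STIM2, the sensor of small store losses, was at 57.5, 57.9 and 62.0 CPM in control and 47.9, 48.3 and 47.7 CPM with propionate, also without overlap and with nearly equal propionate libraries (edgeR log2 fold change -0.30 with an SE of 0.0921, adjusted p = 0.0159).

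Both changes were small. The STIM1 call was lost without propionate library 1 (log2 fold change 0.32, edgeR adjusted p = 0.0602) and also on removal of the GC trend (0.23, edgeR adjusted p = 0.106), in a range of 0.000823 to 0.106. That of STIM2 was lost without control library 3 (edgeR adjusted p = 0.0553, range 0.00212 to 0.0553). ORAI1, the main pore, was at 26.2, 30.2 and 27.9 CPM in control and 29.2, 31.7 and 27.8 CPM with propionate with overlap (edgeR log2 fold change 0.07 with an SE of 0.113, adjusted p = 0.664). Once the GC trend was removed, the log2 fold change of ORAI1 was -0.28 (edgeR adjusted p = 0.0505), and with the replicate block as well it was called as lower (0.0217, range 0.0217 to 0.931). ORAI3 was above control in every propionate library, at 17.9 ± 1.58 and 22.6 ± 2.06 CPM, and was not called (log2 fold change 0.34, edgeR adjusted p = 0.0535), and ORAI2 had a log2 fold change of 0.08 (SE 0.217). The last 500 exonic bases of ORAI2 lie within exons of ALKBH4 on the opposite strand, and ALKBH4 fell (log2 fold change -0.53, edgeR adjusted p = 0.0230).

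Transient receptor potential channels pass cations in response to calcium, temperature and metabolites, and 6 of them were members, of which 1 was higher, 1 was lower and 4 were not called. The share called, 33.3%, was near the 34.2% of all tested genes. TRPM5 is a sodium-conducting channel opened by intracellular calcium, known from taste and tuft cells and reported to act in mucin release by a colonic goblet cell line. It had 13 reads over the 3 controls, split as 3, 4 and 6, and 113 with propionate, split as 28, 58 and 27. Every propionate library held more than 4 times the reads of any control library, and propionate library 2 alone held more than the other two together. The ratio of reads was 8.31 (exact binomial 95% interval 4.67 to 16.1), and the fitted log2 fold change was 3.0 (edgeR SE 0.485, adjusted p = 8.94e-05). It remained a rare transcript, with a mean level of 0.368 ± 0.121 CPM in control libraries and 3.04 ± 1.41 CPM in propionate libraries (SD, n = 3). Exons of TRPM5 share 404 bases with AC124057.1 on the opposite strand, and 319 of these lie close to the end of the TRPM5 exons. Without the strand of the counting, it is not settled whether reads of AC124057.1 are among those of TRPM5.

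TRPM4, the close relative of TRPM5, was at 14.3, 10.6 and 12.7 CPM in control and 17.2, 17.2 and 14.7 CPM with propionate. The groups did not overlap, but the change missed the threshold (edgeR log2 fold change 0.39 with an SE of 0.153, adjusted p = 0.0578). It was called in 4 of 16 alternatives: with the replicate number as a block (edgeR adjusted p = 0.0239), with upper-quartile factors (0.0456), and without control library 1 (0.0372) or propionate library 3 (0.0479). On removal of the GC trend its log2 fold change was 0.07 (edgeR adjusted p = 0.749), and the range over its alternatives was 0.0239 to 0.749. TRPM2, a channel gated by ADP-ribose and known for its response to oxidative stress, fell from 29.3, 37.3 and 25.8 to 21.6, 22.7 and 14.3 CPM. Propionate library 3 was the lowest, the groups did not overlap, and the log2 fold change was -0.66 (edgeR SE 0.162, adjusted p = 0.00378).

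TRPM7, a magnesium and calcium channel fused to a kinase, held most reads of this group, at 54.5, 64.8 and 63.3 CPM in control and 50.8, 61.4 and 50.9 CPM with propionate, with overlap (edgeR log2 fold change -0.16 with an SE of 0.105, adjusted p = 0.246). The capsaicin receptor gene TRPV1 was higher in every propionate library, at 6.55 ± 0.410 and 8.52 ± 0.460 CPM, and was not called (edgeR adjusted p = 0.121). The cold receptor gene TRPM8 had few reads, 30 in control and 45 with propionate, and was not called. The epithelial calcium channel gene TRPV6 had 12 reads in control and 20 with propionate and was no member.

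**Figure D3:**
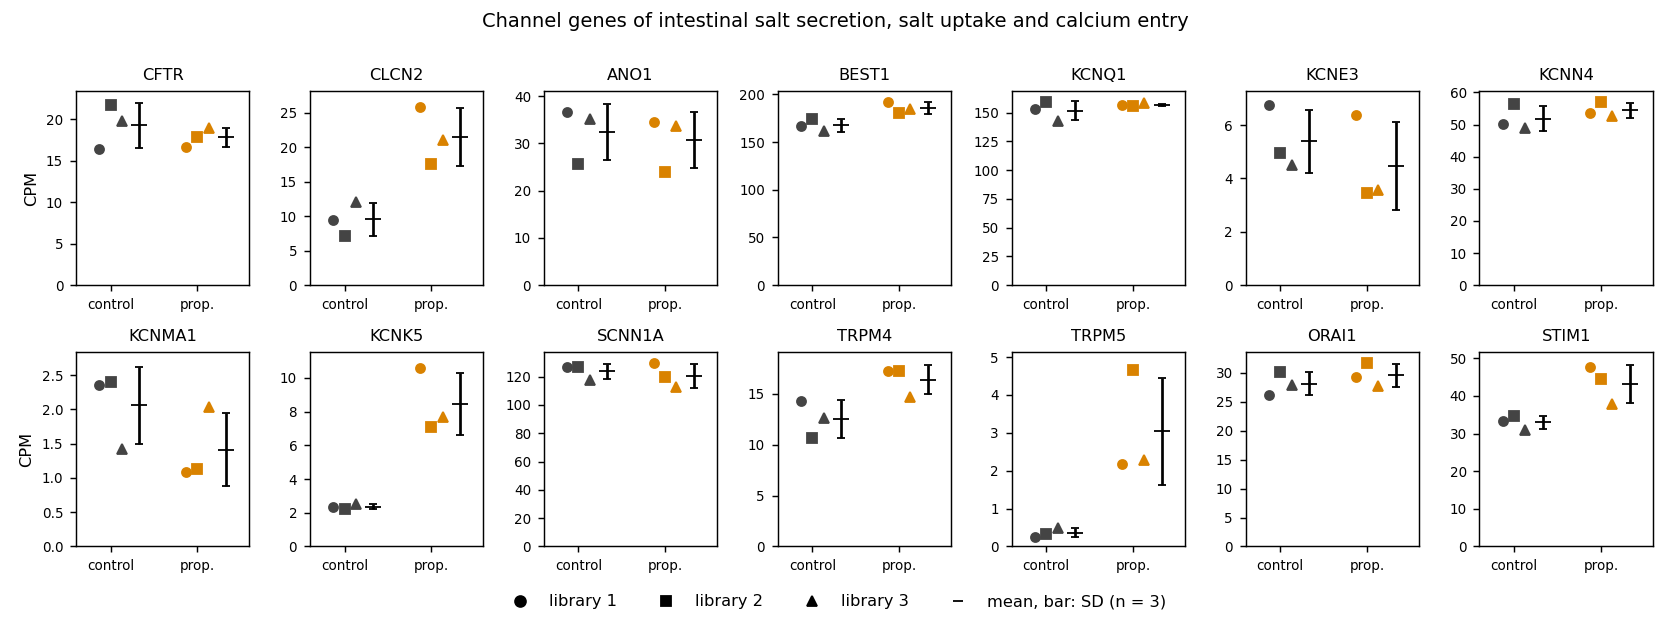
Channel genes of intestinal salt secretion, salt uptake and calcium entry in every library. The vertical axes give CPM from 0, grey and orange symbols are control and propionate libraries, and the dash with a bar is the mean with the SD (n = 3). CLCN2, KCNK5, TRPM5 and STIM1 were called as higher, TRPM4 and BEST1 lie above control without a call, and the groups overlap in the other 8 panels. Reads of CLCN2 and FAM131A, and those of BEST1 and FTH1, cannot be told apart. TRPM5 shares exon bases with AC124057.1 on the opposite strand.

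Chloride channels, with the related anoctamins, bestrophins and CLC proteins, had 16 members, all tested, of which 4 were higher, 1 was lower and 11 were not called. The share called, 31.25%, was near the 34.2% of all tested genes. The summed level of the group went from 695.2 ± 16.3 to 785.2 ± 10.9 CPM (n = 3), with all propionate libraries above all controls. This sum does not describe each gene: 10 members had a positive and 6 a negative log2 fold change, with a median of 0.09. It includes ANO8 (mean 124.6 to 165.6 CPM), BEST1 (167.4 to 185.7 CPM) and CLCN2 (9.5 to 21.5 CPM). Limits on the values of these genes are given with their results. CFTR, the cyclic AMP-gated apical channel that is mutated in cystic fibrosis, was at 16.4, 21.7 and 19.8 CPM in control and 16.6, 17.8 and 19.0 CPM with propionate. Its groups overlapped and its log2 fold change was -0.12 (edgeR SE 0.139, adjusted p = 0.558). ANO1, the calcium-activated chloride channel, was at 36.6, 25.7 and 35.1 CPM in control and 34.4, 23.9 and 33.8 CPM with propionate (edgeR log2 fold change -0.08 with an SE of 0.146, adjusted p = 0.716), and library 2 was the lowest in both groups.

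CLCN2 encodes a chloride channel opened by hyperpolarization. It was at 9.45, 7.19 and 12 CPM in control and 25.9, 17.6 and 21.1 CPM with propionate. The lowest propionate library was above the highest control, and the log2 fold change was 1.17 (edgeR SE 0.183, adjusted p = 6.21e-05). In GENCODE 29 its exons share 2103 bases with FAM131A on the opposite strand, including all of its last 500 exonic bases. FAM131A rose by nearly the same amount, from 455 to 1033 reads (log2 fold change 1.10, edgeR adjusted p = 3.73e-05). The strand setting of the read counting is not given in the sources used here, so the reads of CLCN2 and FAM131A cannot be told apart.

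The CLC exchangers of endosomes and lysosomes, CLCN3, CLCN4, CLCN5, CLCN6 and CLCN7, gave 0 calls in 5 tests by edgeR, where 1 had an unadjusted p under 0.05, and DESeq2 and limma-voom also gave 0 calls. Among all tested genes edgeR called 34.2%. CLCN3 had all propionate libraries below all controls, at 152 ± 5.90 and 144 ± 1.57 CPM (log2 fold change -0.08, edgeR adjusted p = 0.487), and CLCN5 had them all above, at 27.2 ± 1.82 and 32.8 ± 4.42 CPM (log2 fold change 0.27, edgeR adjusted p = 0.0893). CLCN4, CLCN6 and CLCN7 had overlapping libraries and log2 fold changes of 0.32, -0.32 and 0.02.

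Anoctamins are calcium-activated channels or lipid scramblases, and 3 of the 7 members were called as higher, where 17.2% of all tested genes were. ANO9 was at 39.3, 38.4 and 41.4 CPM in control and 57.3, 58.6 and 61.0 CPM with propionate, without overlap (edgeR log2 fold change 0.57 with an SE of 0.0945, adjusted p = 0.000115). Its log2 fold change was 0.30 on removal of the GC trend and was still called (edgeR adjusted p = 0.0184). ANO8, a tether between the endoplasmic reticulum and the plasma membrane, was at 143, 123 and 108 CPM in control and 156, 187 and 153 CPM with propionate without overlap (edgeR log2 fold change 0.41 with an SE of 0.102, adjusted p = 0.00415). With the GC trend removed the log2 fold change of ANO8 was 0.06 (edgeR adjusted p = 0.678, range 1.90e-05 to 0.678). Its exons share 79 bases with DDA1 on the opposite strand, and DDA1 rose (log2 fold change 0.39, edgeR adjusted p = 0.00391).

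ANO10 was at 32.2, 31.9 and 32.8 CPM in control and 39.5, 41.4 and 38.4 CPM with propionate, without overlap (edgeR log2 fold change 0.30 with an SE of 0.101, adjusted p = 0.0267). This call was lost without control library 1, control library 2, propionate library 1 or propionate library 2 (edgeR adjusted p = 0.0698, 0.0655, 0.0577 and 0.0876, range 0.00795 to 0.0876). Exons of ANO10 share 170 bases with ABHD5 on the opposite strand, which fell (log2 fold change -0.53, edgeR adjusted p = 0.00100). ANO6, the scramblase that exposes phosphatidylserine, had mean levels of 47.0 ± 4.99 and 47.8 ± 3.31 CPM (log2 fold change 0.03, SE 0.105). ANO5 and ANO7 had log2 fold changes of -0.28 and 0.21 with overlapping libraries.

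Bestrophins are calcium-activated anion channels. BEST3 fell from 2.89, 4.11 and 6.42 CPM in control to 0.931, 1.12 and 2.45 CPM with propionate. In both groups library 3 was the highest, and propionate library 3 was just below control library 1, so the groups did not overlap (edgeR log2 fold change -1.58 with an SE of 0.382, adjusted p = 0.00323). BEST1 was at 167, 174 and 161 CPM in control and 192, 180.3 and 184 CPM with propionate, with all propionate libraries above all controls. It was not called (edgeR log2 fold change 0.15 with an SE of 0.0787, adjusted p = 0.152), but passed with the replicate block (edgeR adjusted p = 0.0289, range 0.0289 to 0.334). Exons of BEST1 share 1267 bases with FTH1, the ferritin heavy chain gene, on the opposite strand, including all of the last 500 exonic bases of BEST1, and FTH1 held 144885 reads in control. Without the strand of the counting, reads of BEST1 and FTH1 cannot be told apart.

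The prefixes took in 6 symbols that are not channel genes. KCNQ1OT1 is a long non-coding RNA transcribed antisense from within KCNQ1, known for silencing its imprinted domain in cis. It had the smallest p of all members: its libraries were at 57.4, 62.3 and 57.5 CPM in control and 114, 128 and 119.9 CPM with propionate (edgeR log2 fold change 1.03 with an SE of 0.0881, adjusted p = 7.18e-08). The spread within each group was far smaller than the gap between them, and it remained called in 16 of 16 alternatives. Annotated exons of KCNQ1OT1 and KCNQ1 share 121 bases.

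TRPM2-AS, which is antisense to TRPM2, was at 17.9, 17.5 and 16.9 CPM in control and 12.2, 15.8 and 11.5 CPM with propionate without overlap (edgeR log2 fold change -0.40 with an SE of 0.150, adjusted p = 0.0447). This call held in 8 of 16 alternatives, and in 1 of the 6 that left out a library, the one without propionate library 2 (range 0.00162 to 0.156). KCNMB2-AS1, KCNQ1-AS1, ANO1-AS2 and TRPC4AP were not called, with log2 fold changes of -0.19, -0.22, 0.82 and 0.04.

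**Figure D4:**
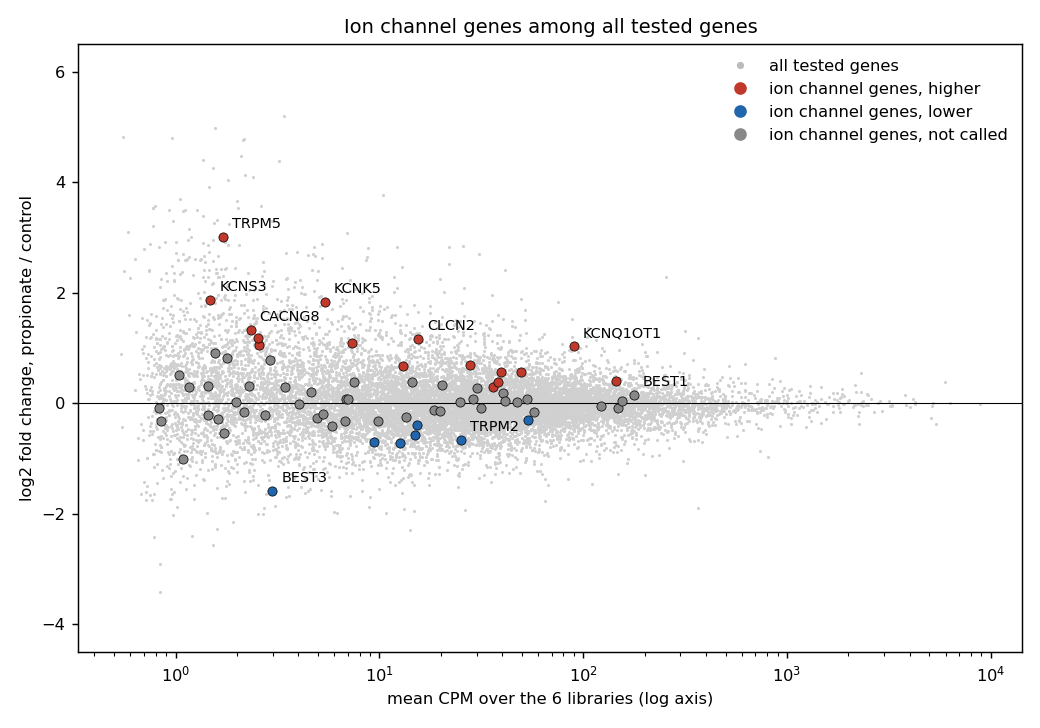
The ion channel genes among all tested genes. The horizontal axis is the mean CPM over the 6 libraries on a log scale, the vertical axis the log2 fold change of propionate over control, small grey dots are all 13605 tested genes and large dots are the members, coloured by call. The members spread through the cloud of all genes, and those with the largest changes, TRPM5 and KCNS3, are among those with few reads.

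Channel genes outside these prefixes were taken from a list of 76, of which 47 were tested. Of these, 17 were higher and 4 lower, which is 44.7% beside the 34.2% of all tested genes, and their median log2 fold change was 0.13. With the replicate block the lower count was 8. The filter on low counts was passed through the libraries of 1 group alone by 4 of the 47, among them CLIC3 and RYR3, so this share too is a description and supports nothing further. CLIC3, a member of the chloride intracellular channel family, had 7 reads in control and 128 with propionate, a ratio of 17.5 (exact binomial 95% interval 8.24 to 44.3, edgeR adjusted p = 6.50e-06). TMC8 rose 4.72-fold, the osmosensitive channel gene TMEM63C 3.34-fold and TTYH2 4.07-fold (edgeR adjusted p = 4.59e-07, 5.49e-07 and 1.13e-05).

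The lower genes of this list included LRRC8B and LRRC8D, which encode subunits of the volume-regulated anion channel and went from 30.2 ± 1.87 to 18.2 ± 1.21 CPM and from 22.7 ± 1.41 to 16.4 ± 0.702 CPM (n = 3, edgeR adjusted p = 9.62e-05 and 0.00736). The subunits of this channel did not move alike: LRRC8E, named after its values were seen, rose 2.03-fold (edgeR adjusted p = 5.47e-05), and LRRC8A was not called (log2 fold change -0.24, edgeR adjusted p = 0.0802). RYR3, a calcium release channel of the endoplasmic reticulum, had 71 reads in control and 14 with propionate (log2 fold change -2.40, edgeR adjusted p = 0.000808). PANX1, a large-pore channel that releases ATP, fell from 6.92 ± 1.5 to 3.89 ± 1.04 CPM (n = 3, edgeR adjusted p = 0.0143), and this call was lost without control library 3 or propionate library 2 (edgeR adjusted p = 0.0756 and 0.0752, range 0.00293 to 0.0756).

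Transporters, pumps, receptors and regulators that work with these channels in epithelia made a list of 64, of which 52 were tested. Here 17 were higher and 5 lower, 42.3% of those tested beside the 34.2% of all tested genes, with a median log2 fold change of 0.20. SLC9A3R1 and SLC9A3R2 encode scaffold proteins (NHERF1 and NHERF2) that anchor CFTR and sodium-proton exchangers at the apical membrane. They rose from 120.2 ± 3.54 to 184.6 ± 10.5 CPM and from 39.4 ± 3.22 to 75.9 ± 3.02 CPM (n = 3, edgeR adjusted p = 9.45e-06 and 5.96e-07). Both were still called, with smaller log2 fold changes of 0.34 and 0.56, in the fit that removes the GC trend and holds the replicate block. PRSS8, a membrane protease that activates the epithelial sodium channel, rose 1.94-fold (edgeR adjusted p = 2.33e-06). VIPR1, a receptor for vasoactive intestinal peptide that raises cyclic AMP, went from 61 to 255 reads (log2 fold change 1.98, edgeR adjusted p = 1.90e-05).

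The lower genes of this list were SLC9A2, ADORA2B, ADCY3, SGK3 and PTGER4, the last of them named after its values were seen. The sodium-proton exchanger gene SLC9A2 fell from 27.3 ± 2.30 to 17.3 ± 1.39 CPM and the adenosine receptor gene ADORA2B from 15.1 ± 1.92 to 8.78 ± 1.90 CPM (n = 3, edgeR adjusted p = 0.000431 and 0.00196). The adenylate cyclase gene ADCY3 fell by 0.49 on the log2 scale (edgeR adjusted p = 0.00561). The kinase gene SGK3 fell by 0.39 (edgeR adjusted p = 0.0249), a call lost when the GC trend was taken out (0.107) and without control library 1, control library 3 or propionate library 3 (0.0514, 0.0926 and 0.0821, range 0.0094 to 0.107). The count of lower genes was 3 without control library 3 or propionate library 3.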

How the data were processed

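The labels name RNA extraction with RiboEx and a Lexogen QuantSeq library kit. The authors deposited raw counts of reads per gene symbol, 1 table per library, with 25737 lines and 24462 symbols. Named tools and builds, per the submitters' processing notes, are Bowtie2 and edgeR, and hg19 and GRCh37. How reads were counted, with which annotation and strand setting, is not given in the sources used here.

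Counts of the 286 symbols on several lines were summed (no member is among them). The quasi-likelihood test of edgeR 4.0.16 in R 4.3.3 was run with filterByExpr, TMM factors and a prior count of 0.125, and p-values were adjusted over 13605 genes. The SE is the log2 fold change divided by the root of the F statistic. CPM used TMM-scaled totals of the tested genes. Libraries of a group differed by more than sampling noise (chi-square per degree of freedom 6.01 to 8.85). The fit was tested on simulated data. It called 39 of 68 genes changed 1.5-fold, 57 of 69 changed 2-fold and 60 of 63 changed 4-fold. Of the unchanged genes, 9 were called.

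Groups and replicate numbers came from the titles. Same-number libraries deviated together: the correlations of their deviations were 0.240, 0.396 and 0.442 across 9286 genes. All were over 0.1, where those of libraries with different numbers ran from -0.354 to 0.00985. The numbers may therefore mark pairs, which no label states. The fit behind the printed calls has no block, so its SE and p-values leave such pairing out. The blocked fit is an alternative, given beside a named result where it changes the call.

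The alternatives comprised different scaling, DESeq2 1.42.0, limma-voom in limma 3.58.1, other count filters and thresholds, a replicate block, removal of the trend over transcript GC content (spline with 4 degrees of freedom), and leaving out each library. GC content and overlaps came from GENCODE 29.

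Named were 12 genes of epithelial interest that are members, called members, the member with most reads in each ion group, and up to 4 genes per direction of the other lists; further members are given as values. Members and lists were chosen with earlier results of these data known. A few items, 1 tested member among them, are counted but not reported here by name.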

Additional observations from a re-analysis of the deposited data

How the results depend on the processing

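Of the 23 called members, 14 were called in all of the 16 refitted alternatives, and between 19 and 23 in each. When the replicate block was fitted together with removal of the GC trend, 3565 genes were lower in all (2316 without), 13 members were lower (7), and 7 channel genes outside the prefixes were lower (4), a count that was 8 with the replicate block alone. With adjusted p under 0.01, 1424 genes, 4 members and 3 transport partners were lower. Leaving out each library in turn gave 14 to 18 higher and 5 to 7 lower members, and 3 to 5 lower transport partners (5 with all libraries). With the GC trend removed the sign turned for CACNB3 (-0.07), KCNN4 (-0.20), KCNQ1 (-0.27) and ORAI1 (-0.28). These values were the same with the replicate block. KCNQ1 was called as lower without and with the block (edgeR adjusted p = 0.0112 and 0.000433). KCNN4 and ORAI1 were called as lower only with the block (edgeR adjusted p = 0.0387 and 0.0217). Leaving out each library in turn gave ANO1 values from -0.22 to 0.07 and SCNN1A values from -0.09 to 0.01. The sign turned for ANO1 without control library 1 (0.02) or propionate library 2 (0.07), and for SCNN1A without propionate library 3 (0.01). The cause was not tested. The replicate block alone ended no call of the 23 members and added TRPM4 and BEST1 among the named ones. No scaling moved the median of all genes by over 0.1 on the log2 scale. Depth limits members with few reads, such as SCNN1D.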
